A study of Mus musculus with 12 samples.

Results

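Primary tumours of the mouse mammary carcinoma line 67NR, which does not spread from the mammary gland, were compared with primary tumours of 168FARN, 4T07 and 4T1, called the 3 spreading lines here. The question was which genes set 67NR tumours apart from the tumours of all 3 spreading lines in the same direction. The arrays were chosen by the line that their labels name, and all 12 arrays of the series were used: 3 of 67NR tumours, and 3 each of 168FARN, 4T07 and 4T1 tumours. Cultured cells of 1 line had been placed in the fourth mammary fat pad of untreated female BALB/c mice aged 3 months, in 8 mice for 67NR, 11 for 168FARN, 15 for 4T07 and 13 for 4T1. Tumours were removed when they averaged 1 to 2 cm within a group, and biotin-labelled total RNA was hybridised to an Affymetrix mouse exon array. No label says that the 3 arrays of a line came from separate animals, so the p-values measure the spread between these arrays, which may be technical. Each behaviour is represented by 1 line, so a difference between lines and a difference between metastatic behaviours cannot be told apart.

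The 4 lines are sister populations from a single spontaneous mammary tumour and are used together as a ladder of metastatic steps. Cells of 67NR form primary tumours that stay local, those of 168FARN get as far as draining nodes, those of 4T07 arrive in lung tissue but form no visible nodules, and those of 4T1 go on to form lung metastases. The mice and the cells share a genetic background and the immune system is intact, so a tumour holds carcinoma cells together with fibroblasts, vessels and leukocytes of the host. In such bulk RNA, fewer cells of a type and less RNA per cell cannot be told apart.

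The level of a gene is the median of the deposited log2 signals of its probesets, and 15025 genes with at least 3 probesets were tested. A level under 5.08 is called background here. It is the 95th percentile of 335 olfactory receptor genes, which tumours are not thought to express and whose median was 3.12, against 7.39 for all genes. The label of a mammary carcinoma was checked against epithelial markers. In 67NR tumours the epithelial genes Krt18, at 5.95, 5.34 and 7.11, Epcam, at 5.73 ± 0.95, and Cdh1, at 6.21 ± 0.16, lay below the median of all genes. The mesenchymal filament gene Vim was at 13.58 ± 0.04 (SD, n = 3). These epithelial markers were therefore weak in 67NR tumours, though Epcam and Cdh1 were chosen after their values were seen. Not every epithelial gene was weak, as the tight junction gene Cldn9, described below, was higher in 67NR. Of the 168FARN arrays, 2 stood apart. The 13 skeletal muscle markers averaged 5.29 to 6.03 on the 67NR arrays, against 5.51, 8.12 and 9.04 on 168FARN arrays 1, 2 and 3, and 5.37 to 6.36 on the 4T07 and 4T1 arrays. Each comparison was therefore also made with 168FARN array 1 as the only array of its line.

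Of the 15025 genes, 3729 (24.8%) were called in 67NR against the mean of the 3 spreading lines, at an adjusted p under 0.05 by limma. Of these, 1967 (13.1%) were higher and 1762 (11.7%) lower in 67NR. Against the single lines, 3710 genes (24.7%) were called in 67NR minus 168FARN, 3561 (23.7%) in 67NR minus 4T07 and 3356 (22.3%) in 67NR minus 4T1. These 3 comparisons share the 67NR arrays. A call against the mean did not always stand for all 3 lines. It was carried by 3 lines in 1009 genes, by 2 lines in 1741, by 1 line in 911 and by no single line in 68, and 71 genes were called the other way against at least 1 line. The 1009 genes (6.72% of those tested) are what the 3 spreading lines share against 67NR, 619 (4.12%) higher and 390 (2.6%) lower in 67NR. The spreading lines were not equally far apart. Over all genes, 4T07 and 4T1 arrays correlated at 0.9765 on average, near the 0.9805 to 0.9882 within lines. Arrays of 168FARN correlated at 0.9467 with 67NR, 0.9354 with 4T07 and 0.9313 with 4T1. Agreement of 4T07 with 4T1 therefore adds less than agreement of lines equally far apart would.

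**Figure D1:**
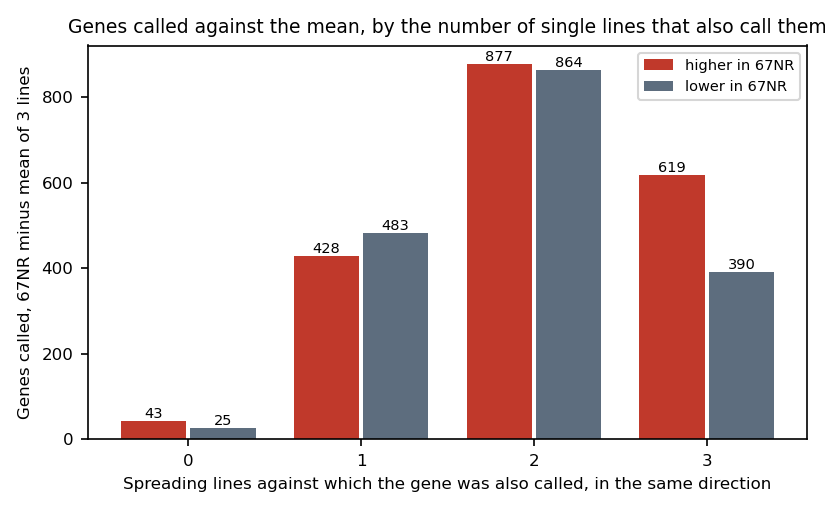
Genes called in 67NR minus the mean of the 3 spreading lines (vertical axis, number of genes), by the number of single lines against which the gene was also called in the same direction (horizontal axis), with bars for genes higher and lower in 67NR. The bars at 3 lines, 619 and 390 genes, are shorter than those at 2 lines, 877 and 864 genes.

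Of the 1009 shared genes, 365 differed among the spreading lines themselves and 644 did not pass that test, against 4776 of all genes (31.8%) that passed it. A difference of at least 1 on the log2 scale against each line was present in 329 genes (2.19%), 181 (1.2%) higher and 148 (0.985%) lower in 67NR. In 324 of them the 3 arrays of 67NR lay outside the range of the 9 others, as they did in 12.8% of all genes (7.68% above and 5.1% below the others). All 9 arrays of the spreading lines were in the background for 61 of the shared genes, 60 of them higher in 67NR. The 3 arrays of 67NR were in the background for 32, of which 20 were lower. Without 67NR array 2, 387 shared genes were higher in 67NR instead of 619. With 168FARN array 1 alone the shared genes numbered 694, of which 411 were higher, and 629 of the 694 were among the 1009.

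Of the shared genes that were higher in 67NR, Cdh2 led. Cdh2, which encodes N-cadherin, a cadherin of neural and mesenchymal cells, was at 9.87, 9.89 and 9.96 in 67NR tumours, against 5.52, 4.73 and 5.25 in 168FARN, 5.63, 5.58 and 5.67 in 4T07 and 5.63, 5.65 and 5.18 in 4T1 tumours. No array of a spreading line came near those of 67NR. The difference from their mean was 4.48 (SE 0.16, 22.3-fold higher, adjusted p = 5.91e-09), and it was 4.74 against 168FARN, 4.28 against 4T07 and 4.42 against 4T1. Rundc3a, a gene of neuroendocrine tissue, was at 9.66, 9.89 and 9.69 in 67NR tumours, against 5.71 to 6.57 in the 9 others (11.8-fold higher, adjusted p = 8.7e-09). Gstt1, a glutathione transferase, was at 9.64, 9.91 and 9.39 in 67NR tumours, against 6.19 to 7.19 in the 9 others (8.15-fold higher, adjusted p = 1.56e-08). For both genes the lowest 67NR array was more than 2 log2 units above the highest array of the others.

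For other leading genes all 9 arrays of the spreading lines were in the background. Where the mean of at least 1 line is below the background limit, a fold is given as a bound ("at least"), computed with every array value below the limit raised to it. Ric3, a chaperone of nicotinic acetylcholine receptors, was at 8.56, 8.99 and 8.50 in 67NR tumours, against 4.22 to 5.03 in the 9 others (at least 12.2-fold higher, adjusted p = 1.47e-08). Atp13a4, a P5-type transport ATPase, was at 7.66, 8.19 and 7.61 in 67NR tumours, against 4.30 to 4.78 in the 9 others (at least 6.68-fold higher). Tmprss11f, a membrane serine protease, was at 7.32, 7.48 and 7.07 in 67NR tumours, against 3.02 to 3.60 in the 9 others (at least 4.62-fold higher). For these 3 genes only the 67NR arrays rose above the background. Slc35f1 (at least 3.89-fold higher) and the transcriptional cofactor gene Dach2 (at least 1.69-fold higher) had the same pattern at lower 67NR levels, 6.68 to 7.51 and 5.77 to 5.93. So did Cfap299 (at least 2.63-fold higher), where 4 of 7 probesets moved in the direction of the gene. Nlrp4f was at 5.20, 5.72 and 4.85 in 67NR tumours, with 1 array in the background, against 2.06 to 2.75 in the 9 others. Hmgcll1, a lyase related to ketone body synthesis, was at 7.72 to 8.39 in 67NR tumours, against 5.40 to 5.84 in 168FARN and 4.14 to 4.48, in the background, in 4T07 and 4T1 tumours (at least 7.03-fold higher). Ccdc184, Tafa5 and Armcx2, at 7.97 to 8.30, 7.81 to 8.61 and 9.41 to 9.58 in 67NR tumours, were 6.95-fold higher, 6.16-fold higher and 6.91-fold higher.

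**Figure D2:**
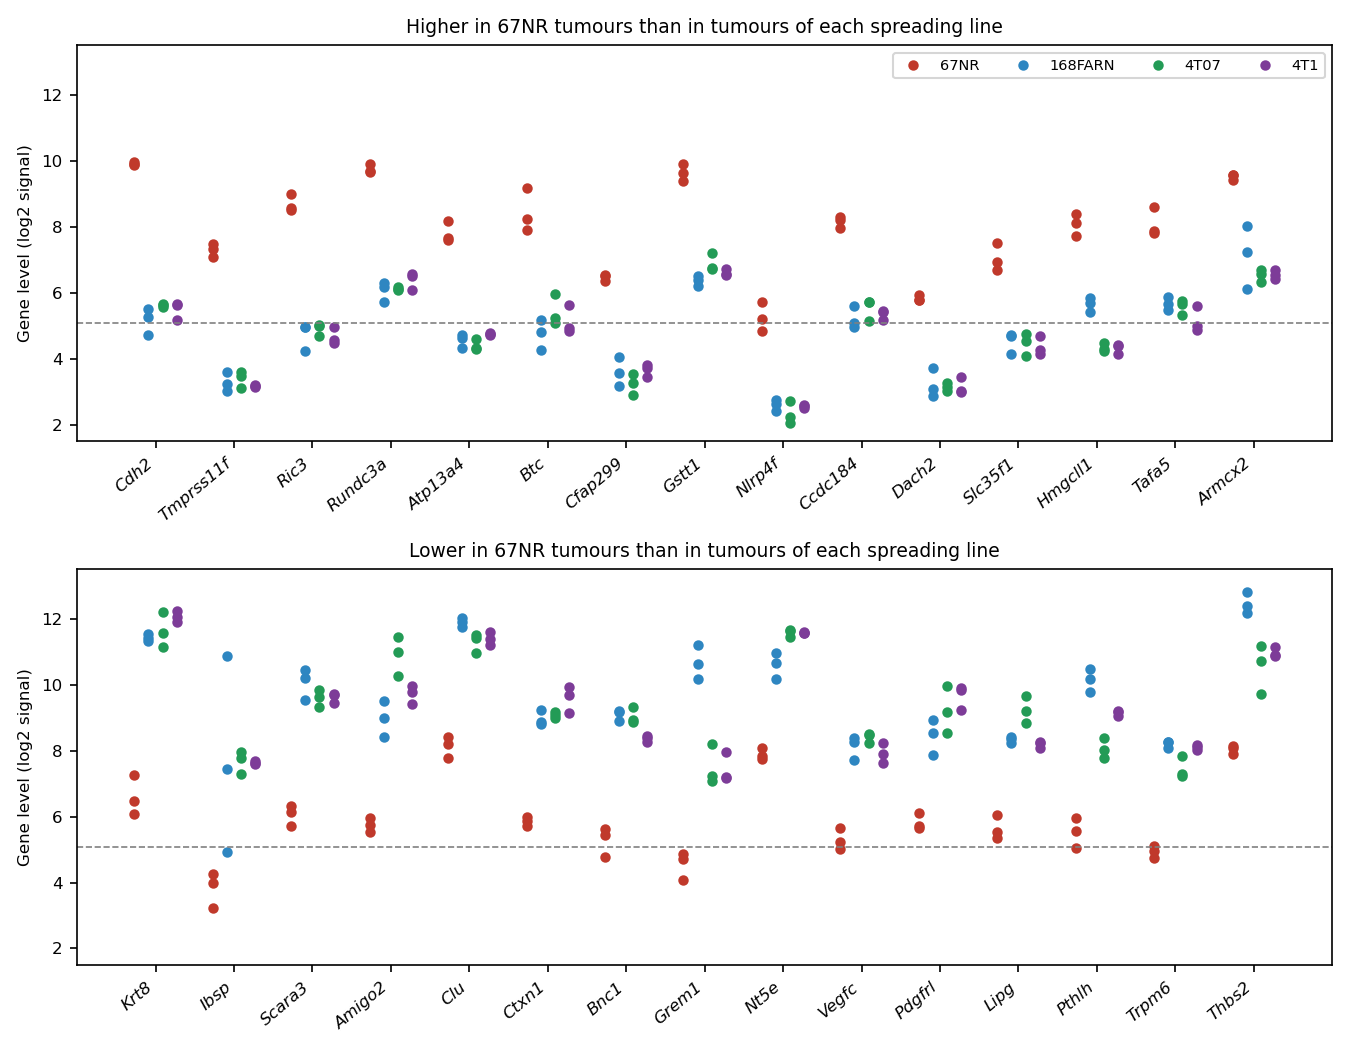
Log2 level (vertical axis) of the 15 leading genes in each direction on every array, with 1 point per array for 67NR, 168FARN, 4T07 and 4T1 tumours. The dashed line is the background limit of 5.08, and in every gene the 3 points of 67NR lie outside the range of the 9 others.

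In the other direction Krt8 led. Krt8, which encodes keratin 8, the type II keratin of simple epithelia, was at 6.47, 6.07 and 7.26 in 67NR tumours, against 11.43, 11.34 and 11.53 in 168FARN, 11.58, 11.14 and 12.20 in 4T07 and 12.05, 11.91 and 12.25 in 4T1 tumours. The 67NR arrays lay far below all 9 others, and the difference was -5.12 (SE 0.24, 34.8-fold lower, adjusted p = 1.45e-08). Scara3, a scavenger receptor gene that responds to oxidative stress, was at 6.32, 6.15 and 5.72 in 67NR tumours, against 9.33 to 10.45 in the 9 others (difference -3.70, SE 0.19, adjusted p = 2.9e-08). Clu, which encodes the secreted chaperone clusterin, was at 8.41, 8.21 and 7.78 in 67NR tumours, against 10.97 to 12.04 in the 9 others (difference -3.40, SE 0.16, adjusted p = 1.47e-08). In both genes the 67NR arrays were apart from all others by more than 2 log2 units.

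Several secreted regulators were near the background in 67NR and strong in the others. Grem1, which binds bone morphogenetic proteins (BMPs) outside the cell and blocks them, was at 4.70, 4.09 and 4.88 in 67NR tumours, against 11.21, 10.62 and 10.16 in 168FARN, 7.23, 7.09 and 8.19 in 4T07 and 7.20, 7.16 and 7.95 in 4T1 tumours. It was at least 11.0-fold lower in 67NR, and 168FARN stood above the other spreading lines. Vegfc, a growth factor for lymphatic vessels, was at 5.65, 5.22 and 5.03 in 67NR tumours, against 7.64 to 8.52 in the 9 others (7.23-fold lower, adjusted p = 1.67e-07). Pthlh, parathyroid hormone-like hormone, was at 5.05, 5.55 and 5.95 in 67NR tumours, against 7.77 to 10.48 in the 9 others (12.1-fold lower, adjusted p = 5.33e-08). Both were lower than on any array of the spreading lines. Thbs2, a thrombospondin of the matrix, was at 8.14, 7.91 and 8.08 in 67NR tumours, against 9.71 to 12.80 in the 9 others (9.74-fold lower). The bone sialoprotein gene Ibsp was in the background on all 67NR arrays, at 3.24, 4.27 and 3.98. On 168FARN arrays it varied between 4.94 and 10.88, and on 4T07 and 4T1 arrays it lay at 7.28 to 7.96 (at least 6.15-fold lower, adjusted p = 0.00332).

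The remaining leading genes that were lower in 67NR include the adhesion gene Amigo2 (difference -4.11), Nt5e, the ectonucleotidase CD73 that makes extracellular adenosine (-3.36), and the epithelial transcription factor gene Bnc1 (-3.54). They also include Ctxn1 (-3.35), Pdgfrl (-3.28), the endothelial lipase gene Lipg (-2.95) and the magnesium channel gene Trpm6 (-2.97). Some shared differences were nearly equal over the 3 lines. Gnpda2, a glucosamine-6-phosphate deaminase, differed by -2.27 against 168FARN, -2.21 against 4T07 and -2.24 against 4T1. The proteasome gene Psmb8 differed by -2.16 against 168FARN, -2.41 against 4T07 and -2.03 against 4T1. Among the higher genes, Klhl4 and Ap3b2, a neuronal adaptor subunit, had similarly even differences. Klhl4 was at 7.28 to 7.70 in 67NR tumours, against 4.70 to 5.32. Ap3b2 was at 6.87 to 7.21 in 67NR tumours, against 4.49 to 5.04 (at least 3.93-fold higher). For Ap3b2 all 9 arrays of the spreading lines were in the background, and for Klhl4 their range reached into it. Even differences therefore cannot show that the spreading lines had equal levels of these genes. All 30 leading genes kept their call against all 3 lines without any 1 array, and also with 168FARN array 1 alone. They had been picked on the same arrays for large differences and separate ranges, so this was largely set by the choice. Of the 139 genes chosen for description that were called against all 3 lines, 98 kept that call without any 1 array and 106 with 168FARN array 1 alone.

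Adhesion genes differed in both directions. Of 33 measured cadherin, junction and adhesion genes, 8 were higher and 16 lower in 67NR against the mean (72.7% called, against 24.8% of all genes), and 3 were higher and 2 lower against all 3 lines. The median difference was -0.48 over the list, against 0.002 over all genes. Beside Cdh2, the neural adhesion gene L1cam was higher. L1cam was at 8.03, 8.37 and 8.20 in 67NR tumours, against 5.51 to 6.61 in the 9 others (4.58-fold higher, adjusted p = 1.51e-07). Cldn9, a tight junction gene, was at 9.06 to 9.60 in 67NR tumours, against 7.06 to 8.69 in 168FARN and 4.77 to 5.94 in 4T07 and 4T1 tumours (7.31-fold higher). Its call against all 3 lines was lost without any 1 of the 67NR arrays, 168FARN array 1 or 4T1 array 1. Vcam1, a counter-receptor of leukocyte integrins, was at 7.06, 6.63 and 6.66 in 67NR tumours, against 7.65 to 9.71 in the 9 others (3.83-fold lower). The members lower against all 3 lines, Amigo2 and Vcam1, are not junction genes, and there were 4 without 4T07 array 3, and 1 with genes of at least 6 probesets.

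Of the epithelial genes of this list, Epcam, an epithelial adhesion molecule, averaged 5.73 ± 0.95 in 67NR tumours, against 7.01 ± 0.29 in 168FARN, 9.82 ± 1.17 in 4T07 and 10.36 ± 0.28 in 4T1 tumours (SD, n = 3 each). Cdh1, the E-cadherin gene, averaged 6.21 ± 0.16 in 67NR tumours, against 6.59 ± 0.14 in 168FARN, 8.64 ± 0.60 in 4T07 and 8.82 ± 0.30 in 4T1 tumours. Neither passed the limma test between 67NR and 168FARN, with adjusted p = 0.0894 for Epcam and 0.315 for Cdh1. Among 10 keratins 0 were higher and 5 lower in 67NR against the mean (50%), and the lower ones numbered 3 without 67NR array 2. Krt18, the partner of keratin 8, was at 5.95, 5.34 and 7.11 in 67NR tumours, against 7.44, 7.09 and 7.12 in 168FARN and 10.91 to 12.65 in 4T07 and 4T1 tumours. So 168FARN tumours had the Krt8 level of the other spreading lines without their Krt18 level. Krt19, another simple epithelial keratin, was also called against all 3 lines (difference -1.26, adjusted p = 0.00599), a call lost without 67NR array 1 or 2, any 1 of the 168FARN arrays or any 1 of the 4T1 arrays and with 168FARN array 1 alone. Its call against the mean was lost without 67NR array 2. Of 14 integrins 3 were higher and 6 lower against the mean (64.3%). Those lower numbered 3 without 67NR array 2 or 3, and those higher 1 without 67NR array 1 or 3 or any 1 of the 4T1 arrays, and 0 without 67NR array 2. Itgb4, the beta chain of the epithelial laminin receptor, was the integrin shared by all 3 comparisons (7.14% of the list, near the 6.72% of all genes). Itgb4 was at 6.50, 6.57 and 6.44 in 67NR tumours, against 8.72 to 10.59 in the 9 others (9.82-fold lower, adjusted p = 1.44e-08).

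Regulators and markers of the epithelial-mesenchymal transition (EMT) were called in both directions. Of 18 measured, 7 were higher and 3 lower in 67NR against the mean (55.6%), and the lower ones numbered 1 without any 1 of the 67NR arrays. The transcription factor genes Snai2, Prrx1, Zeb1 and Zeb2 were among the higher ones, with differences of 1.38, 1.35, 1.06 and 0.56. None of these factor genes was called against all 3 lines. Over the list the median difference was -0.07 against 168FARN, 0.36 against 4T07 and 0.30 against 4T1. Those higher against all 3 lines (1 with 168FARN array 1 alone, and 1 with genes of at least 6 probesets) were Cdh2 and S100a4, a calcium-binding protein also known as fibroblast-specific protein. S100a4 was at 11.90, 11.92 and 12.19 in 67NR tumours, against 11.31, 11.03 and 10.91 in 168FARN and 8.34 to 9.72 in 4T07 and 4T1 tumours (difference 2.25, adjusted p = 1.51e-07). Its call against all 3 lines was lost with 168FARN array 1 alone. Of 16 epithelial transcription and splicing factors 0 were higher and 4 lower (25%, near the share of all genes), and the lower ones numbered 7 without 67NR array 3. Esrp1, an epithelial splicing regulator, was at 4.03 to 5.15 in 67NR tumours, against 4.82 to 4.91 in 168FARN and 6.84 to 9.55 in 4T07 and 4T1 tumours. Elf3, an epithelial transcription factor, was at 4.43 to 4.84 in 67NR tumours, against 5.14 to 6.73 (at least 1.78-fold lower).

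Ligands of the epidermal growth factor (EGF) receptor divided by member, and 3 of them were higher in 67NR than in all 3 spreading lines. Ereg, which encodes epiregulin, was at 9.33, 9.71 and 9.20 in 67NR tumours, against 6.99, 7.17 and 7.07 in 168FARN, 5.29, 5.37 and 5.64 in 4T07 and 5.46, 5.18 and 5.43 in 4T1 tumours (11.0-fold higher, adjusted p = 6.73e-09). Btc, betacellulin, was at 8.23, 9.19 and 7.89 in 67NR tumours, against 4.25 to 5.95 in the 9 others (at least 8.99-fold higher, adjusted p = 2.65e-06). Hbegf, the heparin-binding ligand, was at 10.89, 11.56 and 10.89 in 67NR tumours, against 8.53 to 10.41 in the 9 others (2.64-fold higher, adjusted p = 0.000131). The 67NR arrays lay above all others for each, though the call of Hbegf against all 3 lines was lost without 67NR array 2 or any 1 of the 4T1 arrays. Tgfa, another ligand, and Egfr, the receptor, were lower against the mean, with differences of -1.96 and -0.95. Inhibitors of the receptor were lower against all 3 lines: Errfi1 at 9.32 to 9.67 in 67NR tumours, against 10.03 to 11.33 (2.14-fold lower), and Lrig1 at 9.48 to 9.64 in 67NR tumours, against 10.02 to 10.48 (1.55-fold lower). The call of Lrig1 was lost with 168FARN array 1 alone. Over the 14 measured ligands, receptors and inhibitors 5 were higher and 5 lower against the mean (71.4%).

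Matrix genes were mostly lower in 67NR. Of 38 glycoproteins and proteoglycans 4 were higher and 21 lower against the mean (65.8%), and 2 were higher and 8 lower against all 3 lines. Those lower against all 3 lines numbered 5 without 67NR array 1 or 168FARN array 1 or 3, 4 without 67NR array 3, and 3 without 67NR array 2. Bgn, biglycan, was at 9.99, 9.88 and 9.93 in 67NR tumours, against 10.56 to 12.08 in the 9 others (2.57-fold lower, adjusted p = 5.3e-05). Lum, lumican, was at 7.21, 7.25 and 7.0 in 67NR tumours, against 11.28 to 12.32 in 168FARN and 7.41 to 8.92 in 4T07 and 4T1 tumours. Its call against all 3 lines was lost without any 1 of the 67NR arrays, 4T07 array 1 or 3 or 4T1 array 1 or 2. Postn, periostin, was at 8.67 to 9.31 in 67NR tumours, against 9.81 to 11.60 (3.11-fold lower), a shared call lost without 67NR array 2 or 168FARN array 3 and with 168FARN array 1 alone. Lamb3, a chain of the laminin that the Itgb4 receptor binds, was at 5.24 to 5.65 in 67NR tumours, against 6.16 to 7.69 (2.89-fold lower), a shared call lost without 67NR array 1 or 168FARN array 1. Against this trend Fbln1, a gene of basement membranes and elastic fibres, was at 9.75, 10.14 and 9.80 in 67NR tumours, against 6.73 to 7.80 in the 9 others (5.37-fold higher, adjusted p = 5.67e-08). Vcan, versican, was also higher, at 9.13 to 9.22 in 67NR tumours, against 6.90 to 8.65 (2.66-fold higher).

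Of 23 collagens measured 1 was higher and 10 were lower in 67NR against the mean (47.8%), and 0 were higher and 4 lower against all 3 lines. Col12a1, a collagen that binds to fibrils, was at 7.39, 6.55 and 6.85 in 67NR tumours, against 8.52 to 10.68 in the 9 others (7.87-fold lower, adjusted p = 1.03e-05). The fibrillar collagen Col3a1 was at 9.52 to 10.17 in 67NR tumours, against 10.68 to 11.73 (2.64-fold lower). Col5a2, also fibrillar, was at 7.21 to 7.78 in 67NR tumours, against 7.93 to 9.22 (2.61-fold lower). The basement membrane collagen Col18a1 was at 8.09 to 8.37 in 67NR tumours, against 8.97 to 10.09 (2.71-fold lower). In these 4 genes the 67NR arrays lay below all others. Of 11 enzymes that hydroxylate or crosslink collagen 2 were higher and 5 lower (63.6%), and 0 were higher and 3 lower against all 3 lines (27.3%). The prolyl hydroxylase gene P4ha2 was at 6.69 to 7.14 in 67NR tumours, against 7.77 to 8.99 (3.20-fold lower, adjusted p = 5.35e-05). The higher members numbered 1 without 168FARN array 2 or 4T1 array 1 or 3 and with 168FARN array 1 alone, and 0 without any 1 of the 67NR arrays, and those lower against all 3 lines 1 without 67NR array 2 or 3.

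Fibroblast markers, many of them matrix genes themselves, were also mostly lower in 67NR. Of 18 markers 1 was higher and 12 were lower in 67NR (72.2%), and the list averaged 7.98 to 8.30 on 67NR arrays, against 9.43 to 9.54 on 168FARN, 8.61 to 9.08 on 4T07 and 8.48 to 8.82 on 4T1 arrays. The 67NR arrays were below all others. The median difference was -0.98 against 168FARN, -0.80 against 4T07 and -0.21 against 4T1. Lum, Postn and Col3a1 are in both kinds of list, and Dcn, Dpt, Col1a1, Col1a2, Ogn and Podn of this list also encode matrix proteins. The fibroblast list is therefore not independent of the matrix genes. The 3 markers lower against all 3 lines numbered 1 without 67NR array 2. The part of fibroblast content in the matrix genes was not tested.

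Of 28 metalloproteinases and inhibitors 2 were higher and 7 lower in 67NR (32.1%). Those lower against all 3 lines were Mmp14 and Mmp2 (7.14% of the list, near the 6.72% of all genes). Mmp14, a membrane-bound collagenase that activates Mmp2, was at 9.22, 9.15 and 8.94 in 67NR tumours, against 10.01 to 10.62 in the 9 others (2.32-fold lower, adjusted p = 2.54e-05). Mmp2, a gelatinase, was at 8.78, 8.62 and 8.81 in 67NR tumours, against 9.33 to 11.80 in the 9 others (2.82-fold lower), and its shared call was lost without 4T1 array 3. The higher members numbered 1 without 67NR array 2, and 4 with the mean over probesets. Of 19 serine proteases and serpins 2 were higher and 10 lower (63.2%), and the higher ones numbered 1 without any 1 of the 67NR arrays. Tmprss11f was the member called against all 3 lines (5.26% of the list, under the 6.72% of all genes). Other members showed where 168FARN parted from 4T07 and 4T1. Tmprss11e, a membrane protease, was at 4.15 to 4.19 in 67NR tumours, against 4.52 to 4.77 in 168FARN and 7.47 to 11.13 in 4T07 and 4T1 tumours. Serpine2, an inhibitor of thrombin and urokinase, was at 6.47 to 6.95 in 67NR tumours, against 6.46 to 7.58 in 168FARN and 10.86 to 11.41 in 4T07 and 4T1 tumours.

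Of 25 genes of transforming growth factor beta signalling 0 were higher and 10 lower in 67NR (40%), and 0 were higher and 4 lower against all 3 lines. The count of 4 was 2 without 67NR array 3. Ltbp4, which binds the latent ligand in the matrix, was at 7.45, 7.56 and 7.33 in 67NR tumours, against 8.69 to 10.12 in the 9 others (4.06-fold lower, adjusted p = 1.34e-05). Fst, follistatin, an antagonist of activin, was at 4.80, 5.13 and 4.95 in 67NR tumours, against 6.34 to 7.74 in the 9 others (at least 3.91-fold lower, adjusted p = 7.91e-06). Inhba, the activin subunit, was itself lower, at 7.28 to 7.57 in 67NR tumours, against 7.83 to 9.59 (2.86-fold lower), a shared call lost without 67NR array 3 or 168FARN array 1. Of 20 BMP pathway genes 1 was higher and 6 were lower (35%). Beside Grem1, the ligand gene Bmp7 was at 4.98 to 5.41 in 67NR tumours, against 6.03 to 9.71 (5.45-fold lower), a shared call lost without 168FARN array 2 and with 168FARN array 1 alone. The receptor gene Bmpr1a was at 9.50 to 9.73 in 67NR tumours, against 10.22 to 10.63 (1.66-fold lower), a shared call lost with 168FARN array 1 alone. So the lower members of the BMP list hold a ligand and a receptor as well as an antagonist.

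Of 38 Wnt pathway genes 2 were higher and 15 lower in 67NR (44.7%). Against all 3 lines 0 were higher and 3 lower (7.89%, near the 6.72% of all genes). Those lower against the mean numbered 23 with the mean over probesets. The count of 3 was 5 without 4T07 array 3, and 7 with the mean over probesets. The ligand gene Wnt7b was at 7.32, 7.43 and 7.06 in 67NR tumours, against 8.48 to 9.63 in the 9 others (3.50-fold lower, adjusted p = 1.24e-06). The ligand gene Wnt9a was at 6.13 to 6.68 in 67NR tumours, against 6.99 to 7.53 (1.86-fold lower). The receptor gene Fzd7 was at 6.83 to 6.88 in 67NR tumours, against 7.22 to 8.61 (2.08-fold lower), a shared call lost without 67NR array 1 or 3 or 168FARN array 1. The members that were higher against the mean numbered 1 without 168FARN array 1 or 2, 4T07 array 1 or 2 or any 1 of the 4T1 arrays, 0 without 67NR array 1 or 3, and 1 with genes of at least 1 probeset or with genes of at least 6 probesets. Of 17 Notch genes 6 were higher and 0 lower (35.3%), and the higher ones numbered 3 without 67NR array 1 or 2. Against all 3 lines 1 was higher and 0 lower (5.88%, under the 6.72% of all genes). The receptor gene Notch4, known from endothelium, was called against all 3 lines, at 7.92 to 8.14 in 67NR tumours, against 6.97 to 7.47 (1.82-fold higher), and its shared call was lost with 168FARN array 1 alone.

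Of 31 genes of fibroblast, platelet-derived, hepatocyte and insulin-like growth factor signalling 3 were higher and 10 lower against the mean (41.9%), and 1 was higher and 3 were lower against all 3 lines. Those lower against all 3 lines numbered 5 without 168FARN array 2, and 1 without 67NR array 1. Igf2r, the receptor that clears insulin-like growth factor 2, was at 9.72 to 9.78 in 67NR tumours, against 10.13 to 11.29 (2.13-fold lower). Of 23 genes of the MAP kinase pathway 5 were higher and 4 lower (39.1%). Mapk13, the p38 delta kinase gene, was at 9.42, 9.67 and 9.61 in 67NR tumours, against 6.0 to 6.38 in 168FARN and 8.46 to 8.96 in 4T07 and 4T1 tumours (adjusted p = 1.23e-06). The transcription factor gene Etv4 was at 9.14 to 9.73 in 67NR tumours, against 7.58 to 8.82 (2.21-fold higher), a shared call lost without 67NR array 1 or 2 or 4T1 array 3. Jun, of the AP-1 factor, was at 10.18 to 10.37 in 67NR tumours, against 9.29 to 9.81 (1.62-fold higher), a shared call lost without 67NR array 2 and with 168FARN array 1 alone. The higher members numbered 3 without any 1 of the 67NR arrays, 168FARN array 1 or 4T1 array 1 or 3, and 8 with the mean over probesets, and those shared 1 without 67NR array 2.

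Guidance genes were called in both directions. Of 38 semaphorins, ephrins, netrins and receptors 11 were higher and 18 lower in 67NR (76.3%), and 3 were higher and 4 lower against all 3 lines. The higher members numbered 7 without 67NR array 2. Ntn1, the secreted guidance cue netrin 1, was at 6.46, 5.82 and 6.59 in 67NR tumours, against 8.43 to 9.80 in the 9 others (6.51-fold lower, adjusted p = 3.54e-07). The ephrin genes Efna5 and Efnb2, membrane ligands of Eph receptors, were 4.25-fold lower and 4.08-fold lower, with 67NR arrays at 6.78 to 7.18 and 7.08 to 7.44. Epha7, an Eph receptor gene, was at 5.87 to 5.98 in 67NR tumours, against 3.77 to 4.42, in the background (at least 1.79-fold higher). Sema6d, a transmembrane semaphorin, was at 8.89 to 8.99 in 67NR tumours, against 6.78 to 8.39 (2.10-fold higher). The semaphorin co-receptor Nrp1 was at 10.09 to 10.29 in 67NR tumours, against 8.54 to 9.54 (2.20-fold higher), a shared call lost without 67NR array 1 or 3 or 4T1 array 1 or 3.

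**Figure D3:**
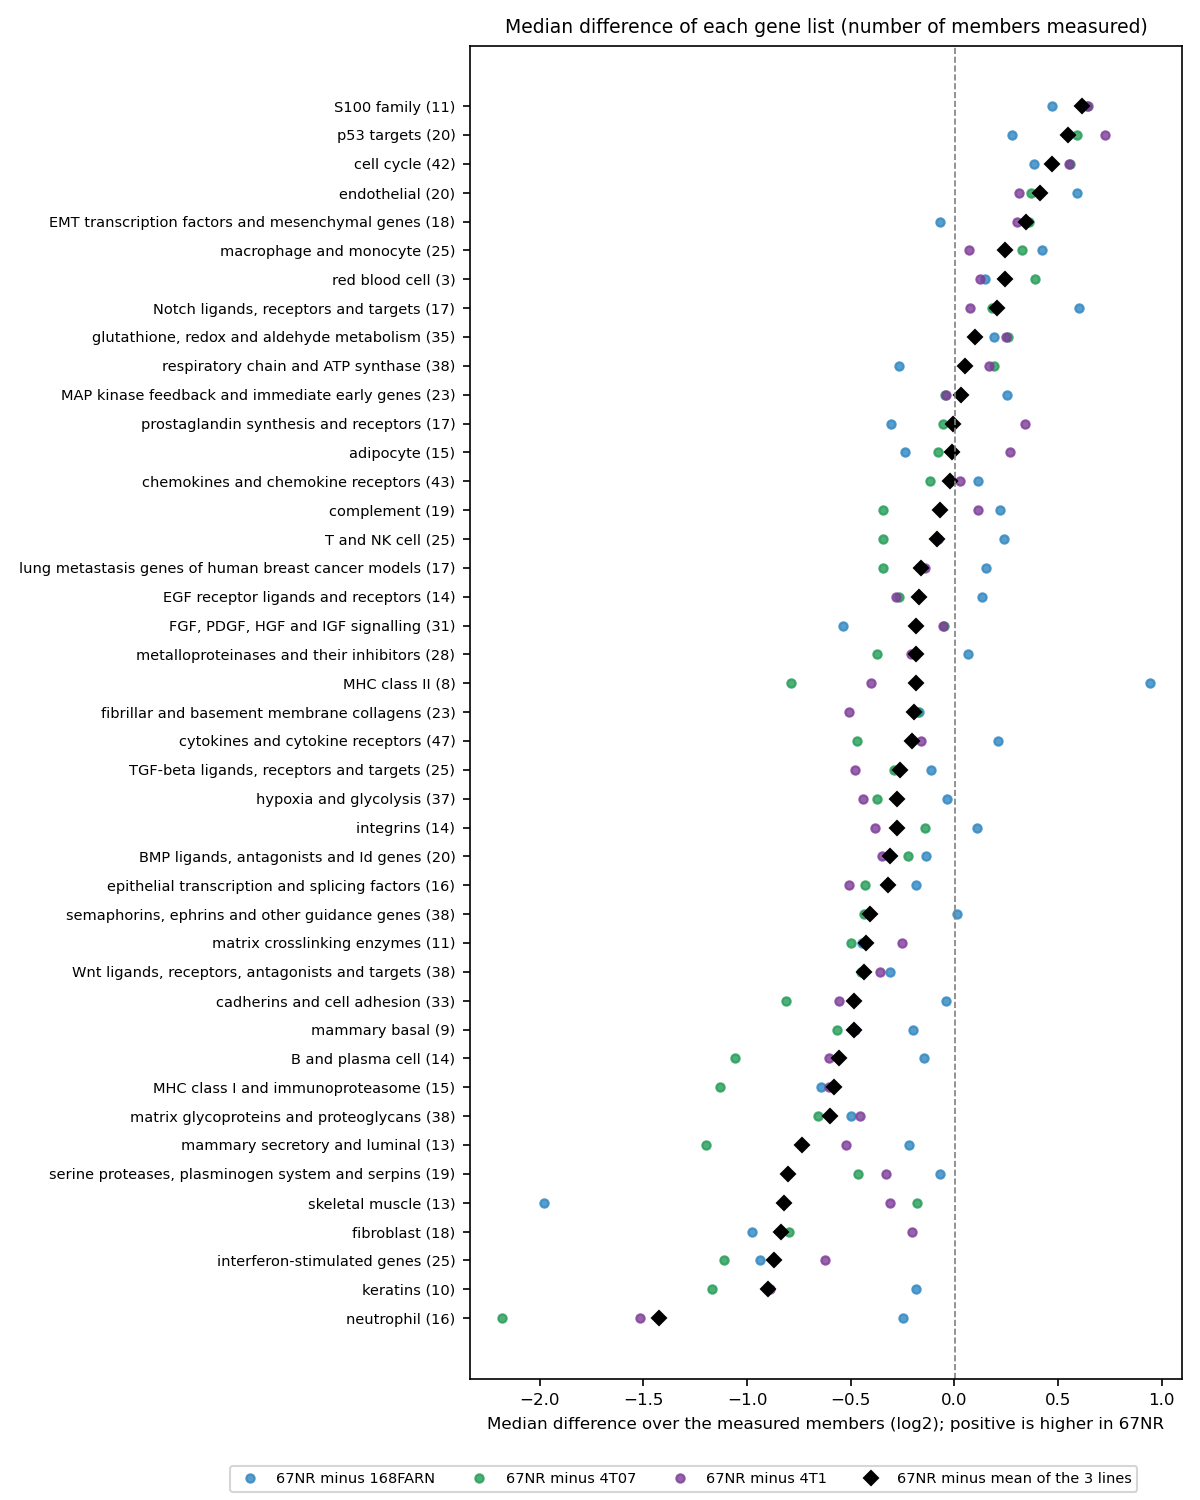
Median difference over the measured members of each gene list (horizontal axis, log2, 67NR minus the named line or, as black diamonds, the mean of the 3 lines), with 1 row per list. Among the lists, interferon-stimulated genes, MHC class I, matrix glycoproteins and fibroblast markers lie below 0 against every line. So do others, such as neutrophil markers, keratins, collagens and Wnt genes. The S100 family (listed without S100a8 and S100a9), p53 targets, cell cycle and endothelial markers lie above 0 against every line. Notch, glutathione and macrophage lists do so as well.

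Interferons bind receptors that activate transcription factors, Stat2 and Irf9 among them, which bind the interferon-stimulated response element in the promoters of antiviral genes. Of 25 members measured 0 were higher and 21 lower against the mean (84%, against 24.8% of all genes), and 9 members were lower against all 3 lines (36%, against 6.72% of all genes). The median difference was -0.94 against 168FARN, -1.11 against 4T07 and -0.62 against 4T1. The 4 members that did not pass had differences between -0.53 and 0.39. The count of 9 was 5 without 67NR array 1 or 2, 168FARN array 3 or 4T1 array 3 and with 168FARN array 1 alone, and 4 without 67NR array 3.

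Of the members, the transcription factor gene Stat2 was at 8.56, 8.49 and 8.60 in 67NR tumours, against 9.61, 9.80 and 10.10 in 168FARN, 9.87, 9.94 and 9.97 in 4T07 and 9.09, 9.31 and 9.48 in 4T1 tumours. The 67NR arrays were below all others, and 4T1 was the nearest line (difference from the mean -1.13, SE 0.13, adjusted p = 2.58e-05). Ifi44, an interferon-induced protein, was at 8.62, 8.27 and 8.70 in 67NR tumours, against 9.41 to 10.91 in the 9 others (3.07-fold lower, adjusted p = 0.000176), a shared call lost without 67NR array 2 or 4T1 array 3. Bst2, tetherin, which holds budding viruses at the cell surface, was at 8.75, 8.54 and 8.24 in 67NR tumours, against 9.30 to 10.07 in the 9 others (2.35-fold lower, adjusted p = 0.000123), a shared call lost with 168FARN array 1 alone. Oasl2, of the oligoadenylate synthetase family, was at 7.74, 7.76 and 7.85 in 67NR tumours, against 8.38 to 10.10 in the 9 others (2.79-fold lower, adjusted p = 4.19e-05), a shared call lost with 168FARN array 1 alone. In each of these genes the 67NR arrays lay below all 9 others. Rtp4 (difference -1.38) lost its shared call without any 1 of the 67NR arrays or 4T1 array 3, and Oasl1 (-0.82) without any 1 of the 67NR arrays, 168FARN array 2 or 3 or 4T1 array 2 or 3 and with 168FARN array 1 alone. Ifih1, a sensor of double-stranded RNA named here for its promoter, averaged 6.99 ± 0.12 in 67NR tumours, against 7.66 ± 0.27 in 168FARN, 8.78 ± 0.30 in 4T07 and 8.32 ± 0.15 in 4T1 tumours (SD, n = 3 each).

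The genes that load peptides onto MHC class I molecules, which interferons also induce, were mostly lower in 67NR. Of 15 members 0 were higher and 12 lower (80%), and 7 were lower against all 3 lines (46.7%). The count of 7 was 3 with 168FARN array 1 alone. Psmb8, an immunoproteasome subunit that cuts peptides for presentation, was at 7.68, 7.03 and 7.25 in 67NR tumours, against 9.36, 9.69 and 9.40 in 168FARN, 9.35, 9.85 and 9.99 in 4T07 and 9.25, 9.35 and 9.46 in 4T1 tumours. The 67NR arrays lay below the range of the others, and the spreading lines overlapped (4.60-fold lower, adjusted p = 7.69e-07). Its partner subunits Psmb9 and Psmb10 were 2.72-fold lower and 2.68-fold lower, at 8.54 to 9.02 and 8.75 to 8.87 in 67NR tumours. Tap2 and Tap1, the peptide transporter, were 2.12-fold lower and 2.07-fold lower, and Tapbpl, a peptide editor, 1.88-fold lower. The shared call was lost for Psmb10 without 168FARN array 2 or 3 and with 168FARN array 1 alone, for Tap1 with 168FARN array 1 alone and for Tapbpl with 168FARN array 1 alone. The proteasome activator gene Psme1, also named for its promoter, averaged 10.44 ± 0.09 in 67NR tumours, against 11.08 ± 0.37 in 168FARN, 11.79 ± 0.27 in 4T07 and 11.41 ± 0.17 in 4T1 tumours. Of the class I chains, H2-K1 differed by -0.57 and H2-D1 by -0.42, while B2m, with a difference of -0.10, did not pass. The 8 MHC class II genes, which present peptides on antigen-presenting cells, had median differences of 0.94 against 168FARN, -0.79 against 4T07 and -0.40 against 4T1. Against the mean limma called 0 of the 8, 0 had an unadjusted p under 0.05, and the trended robust fit also called 0. Against single lines, 5 of the 8 were higher in 67NR than in 168FARN tumours, 6 were lower than in 4T07 and 1 was lower than in 4T1 tumours.

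**Figure D4:**
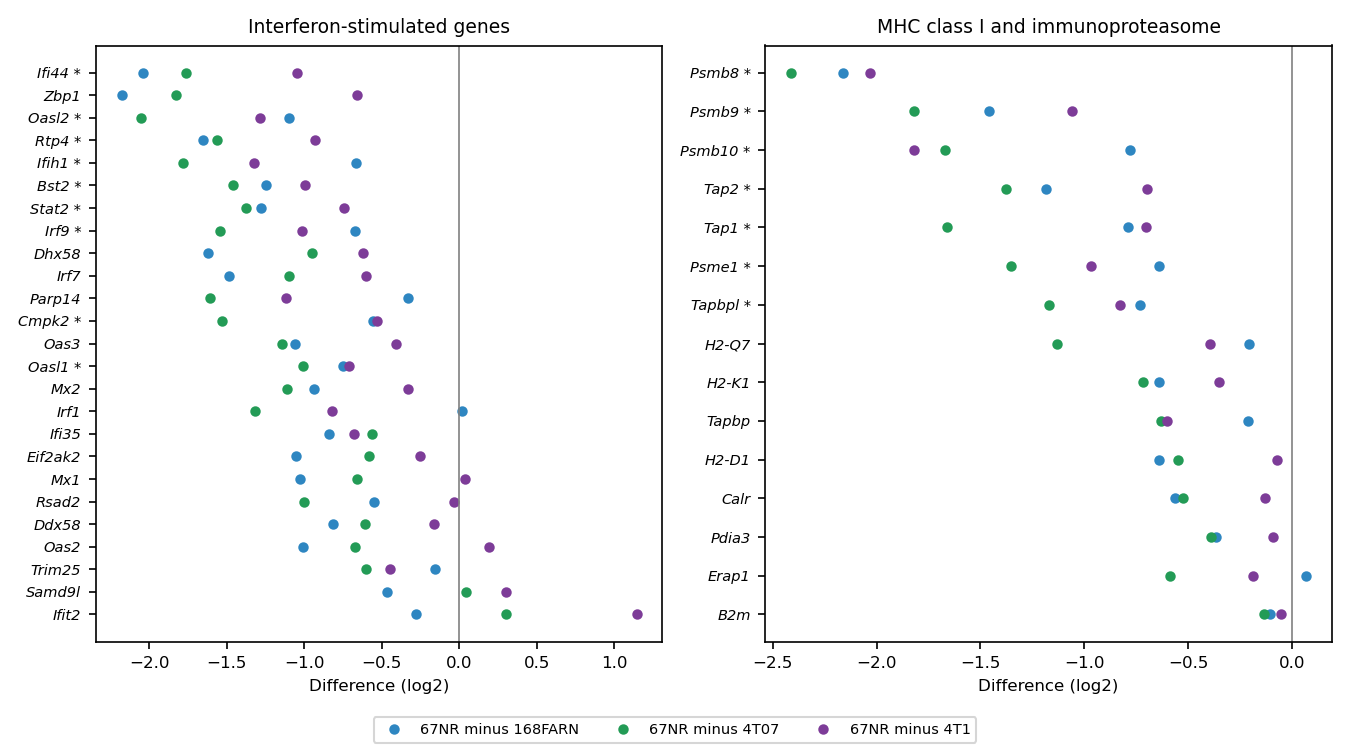
Difference in log2 level between 67NR and each spreading line for 25 interferon-stimulated genes and 15 genes of MHC class I and the immunoproteasome, with 1 point per line. Genes called lower against all 3 lines carry an asterisk, and most points lie on the side of lower levels in 67NR.

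The promoters of both lists were searched for the core of the interferon-stimulated response element. The motif was GAAA, any 2 bases and GAAA again, searched on both strands (TTTC, any 2 bases and TTTC on the other), in RefSeq windows of build GRCm38.p6, from 250 bases before to 50 after the start of a gene. A match is a description and not a binding site. It was present in 1079 of 27025 genes with a window (3.99%), and in 451 of 12017 tested genes with a window (3.75%). In the interferon list it was present in 7 of 18 members with a window, in 3 of the 8 that were lower against all 3 lines and in 4 of the 10 others. In the MHC class I list it was present in 3 of 13, in 1 of the 5 that were lower against all 3 lines and in 2 of the 8 others. The 4 members lower against all 3 lines with a match are shown, 5′ to 3′ on the strand of the gene with the matched letters in capitals. In Bst2, 2 matches overlap.
Bst2, chr8:71537423-71537722, minus strand: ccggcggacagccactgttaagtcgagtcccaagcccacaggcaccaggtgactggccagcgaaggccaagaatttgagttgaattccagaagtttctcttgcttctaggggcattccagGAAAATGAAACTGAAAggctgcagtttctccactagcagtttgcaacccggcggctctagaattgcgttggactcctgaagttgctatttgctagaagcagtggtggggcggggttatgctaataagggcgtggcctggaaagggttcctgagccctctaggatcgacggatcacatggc
Stat2, chr10:128270248-128270547, plus strand: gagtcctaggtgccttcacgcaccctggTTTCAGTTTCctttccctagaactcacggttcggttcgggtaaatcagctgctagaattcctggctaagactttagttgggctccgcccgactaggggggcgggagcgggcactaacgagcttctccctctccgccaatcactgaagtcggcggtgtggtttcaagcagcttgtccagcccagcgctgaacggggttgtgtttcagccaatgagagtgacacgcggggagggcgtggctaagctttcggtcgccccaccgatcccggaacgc
Ifih1, chr2:62646206-62646505, minus strand: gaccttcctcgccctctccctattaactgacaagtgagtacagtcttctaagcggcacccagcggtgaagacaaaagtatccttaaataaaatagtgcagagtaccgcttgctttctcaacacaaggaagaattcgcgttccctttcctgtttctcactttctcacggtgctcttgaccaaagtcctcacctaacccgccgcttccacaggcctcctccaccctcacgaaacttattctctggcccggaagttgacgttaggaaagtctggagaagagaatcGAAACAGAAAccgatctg
Psme1, chr14:55578244-55578543, plus strand: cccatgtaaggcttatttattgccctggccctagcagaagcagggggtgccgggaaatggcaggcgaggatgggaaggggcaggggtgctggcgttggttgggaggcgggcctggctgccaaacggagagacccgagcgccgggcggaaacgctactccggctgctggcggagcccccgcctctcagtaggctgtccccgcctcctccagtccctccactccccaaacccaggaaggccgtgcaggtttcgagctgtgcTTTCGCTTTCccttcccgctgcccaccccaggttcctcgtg

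Chemokines and cytokines were mixed. Of 43 chemokines and receptors 6 were higher and 7 lower in 67NR (30.2%, near the share of all genes). The higher members numbered 10 with the mean over probesets. The lower members numbered 4 without 67NR array 2, and 4 with genes of at least 6 probesets. Cxcl12, which attracts cells that carry Cxcr4, was at 9.24, 8.52 and 8.69 in 67NR tumours, against 6.08 to 7.04 in the 9 others (4.76-fold higher, adjusted p = 4.33e-06). Ccl11, eotaxin, was at 6.57 to 6.68 in 67NR tumours, against 7.18 to 8.45 (2.18-fold lower), a shared call lost with 168FARN array 1 alone. The ligand Cx3cl1 was at 9.89 to 10.22 in 67NR tumours, against 8.38 to 9.62 (2.03-fold higher), a shared call lost without 67NR array 1 or 2 or 4T1 array 1 or 3. Its receptor Cx3cr1 was at 10.46 to 10.61 in 67NR tumours, against 8.13 to 9.96 (2.49-fold higher), a shared call lost without any 1 of the 67NR arrays or 4T1 array 1 or 3. So ligand and receptor were both higher. The higher shared members numbered 1 without 67NR array 1 or 2 or 4T1 array 1 or 3.

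Of 47 cytokines and receptors 11 were higher and 15 lower in 67NR (55.3%), and 2 were higher and 7 lower against all 3 lines. The higher members numbered 7 without 67NR array 3, and those shared 1 with 168FARN array 1 alone. Eda2r, a receptor of ectodysplasin A2, was at 9.61, 9.52 and 9.46 in 67NR tumours, against 7.65 to 8.25 in 168FARN and 3.96 to 5.09 in 4T07 and 4T1 tumours (at least 11.3-fold higher, adjusted p = 1.45e-08). Il23a, a subunit of interleukin 23, was at 4.95 to 5.03 in 67NR tumours, against 6.15 to 8.23 (at least 4.48-fold lower). Il1r2, a decoy receptor of interleukin 1, was at 4.74 to 5.51 in 67NR tumours, against 6.69 to 7.82 (at least 4.39-fold lower). For Il23a all 67NR arrays were in the background. The receptor gene Osmr and the ligand gene Tnfsf9 were 2.43-fold lower and 2.22-fold lower.

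Leukocyte and vessel markers also differed between the lines. Of 16 neutrophil markers 0 were higher and 12 lower in 67NR (75%), and 3 were lower against all 3 lines, a count of 5 without 67NR array 3. The list averaged 5.79 to 6.42 on 67NR arrays, against 6.23 to 6.82 on 168FARN, 8.13 to 8.46 on 4T07 and 7.53 to 7.87 on 4T1 arrays, so 67NR and 168FARN overlapped. Padi4, a citrullinating enzyme of granulocytes, was at 5.62, 5.67 and 5.63 in 67NR tumours, against 6.32 to 7.85 in 168FARN and 10.05 to 10.60 in 4T07 and 4T1 tumours (11.5-fold lower, adjusted p = 6.65e-07). Clec4e, a receptor of myeloid cells, was at 5.77 to 6.05 in 67NR tumours, against 6.65 to 8.10 (3.07-fold lower). Il1r2 is in this list as well.

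Of 25 macrophage and monocyte markers 9 were higher and 1 lower in 67NR (40%), and 5 were higher against all 3 lines, a count of 3 with 168FARN array 1 alone. The list averaged 9.55 to 9.67 on 67NR arrays, against 9.04 to 9.12 on 168FARN, 8.96 to 9.29 on 4T07 and 9.41 to 9.49 on 4T1 arrays. Vsig4, a complement receptor of resident macrophages, was at 8.36, 8.79 and 8.08 in 67NR tumours, against 6.09 to 6.43 in 168FARN, 4.46 to 4.59 in 4T07 and 5.69 to 6.18 in 4T1 tumours (at least 6.33-fold higher, adjusted p = 5.58e-08). Folr2, Siglec1 and Mrc1, also of resident macrophages, were 2.36-fold higher, 2.20-fold higher and 2.19-fold higher. The shared call was lost for Folr2 with 168FARN array 1 alone, for Siglec1 with 168FARN array 1 alone and for Mrc1 without 4T1 array 2. Of 25 T and NK cell markers 4 were higher and 1 lower (20%, under the share of all genes), and the higher ones numbered 2 without 67NR array 1 or 2. Against all 3 lines 1 was higher and 1 lower (8%, near the 6.72% of all genes). The median difference from the mean was -0.09 over this list. The list averaged 6.40 to 6.71 on 67NR arrays, against 5.97 to 6.24 on 168FARN, 6.54 to 7.33 on 4T07 and 6.25 to 6.53 on 4T1 arrays. Gzma, a granzyme of cytotoxic cells, was at 8.40, 8.21 and 8.42 in 67NR tumours, against 5.64 to 7.50 in the 9 others (4.59-fold higher, adjusted p = 0.000139). The receptor gene Il7r went the other way and was lower against all 3 lines. Its difference from the mean lay between -1.82 and -1.16 over the alternatives run. Dropping either 67NR array 3 or 168FARN array 1 removed this shared result for Il7r.

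Of 20 endothelial markers 8 were higher and 1 lower in 67NR (45%), and the list averaged 8.16 to 8.36 on 67NR arrays, against 7.68 to 7.78 on 168FARN, 7.60 to 8.02 on 4T07 and 7.71 to 8.08 on 4T1 arrays. Lyve1, a hyaluronan receptor of lymphatic vessels and some macrophages, was at 9.36, 10.52 and 9.73 in 67NR tumours, against 6.53 to 8.54 in the 9 others (5.81-fold higher, adjusted p = 5.67e-05), a shared call lost with 168FARN array 1 alone. The 3 endothelial markers higher against all 3 lines numbered 5 without 4T1 array 2, 1 without 67NR array 1 or 2, 4T07 array 1 or 2 or 4T1 array 1 or 3, and 0 with 168FARN array 1 alone. In 67NR against the mean 1 of 14 B and plasma cell markers was lower (7.14%), a count of 8 without 4T1 array 2 and of 3 without 4T07 array 3 or with 168FARN array 1 alone. Of 15 adipocyte markers 1 was higher (6.67%), 3 without 4T07 array 2 or with the trended robust fit and 0 without 67NR array 3, where 3 were lower. Of 13 skeletal muscle markers 1 was lower (7.69%), 10 without 168FARN array 1 and 0 without any 1 of the 67NR arrays. Of 3 red blood cell markers 1 was higher (33.3%). Of 9 mammary basal markers 2 were higher and 1 lower (33.3%), and leaving out 1 array gave 0 to 1 higher and 0 to 3 lower. Of 13 mammary secretory and luminal markers 1 was higher and 5 were lower (46.2%). The luminal list averaged 5.56 to 5.74 on 67NR arrays, against 5.82 to 5.95 on 168FARN, 7.06 to 8.35 on 4T07 and 6.61 to 7.0 on 4T1 arrays. It holds Krt8, the leading gene lower in 67NR, and how far Krt8 alone set these averages was not tested. The part of leukocytes and vessels in the interferon, chemokine and cytokine genes was not tested.

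**Figure D5:**
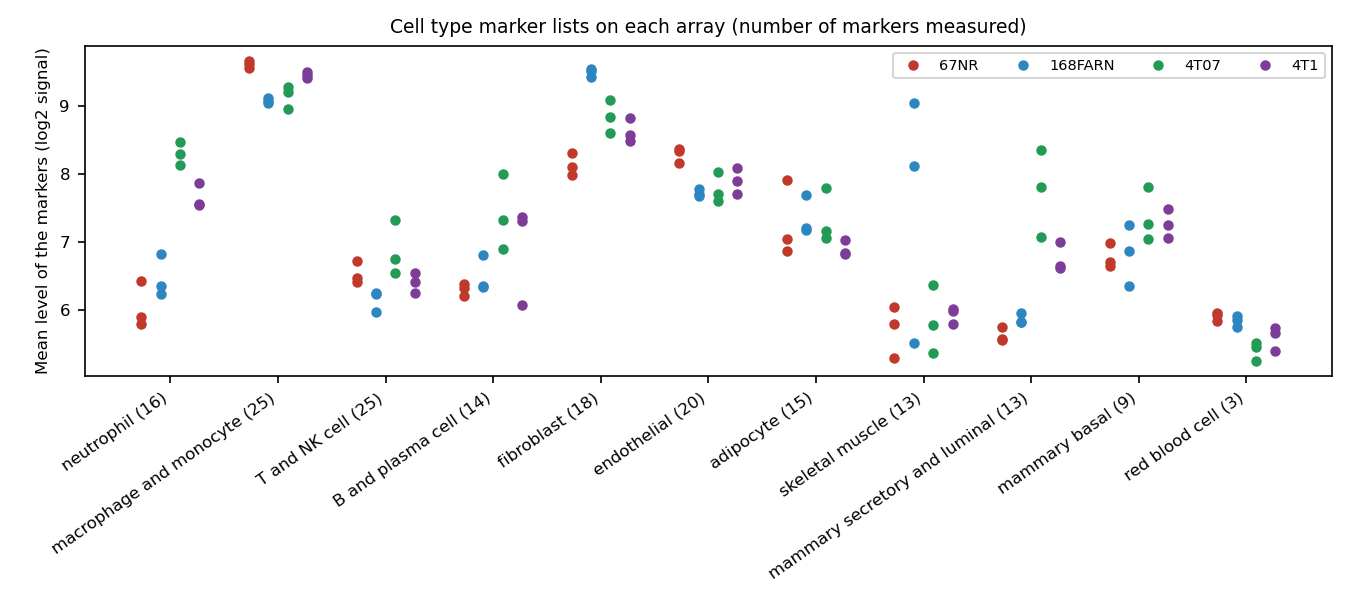
Mean log2 level of each cell type marker list on every array, with 1 point per array for 67NR, 168FARN, 4T07 and 4T1 tumours. The 67NR points lie above all others for macrophage and endothelial markers. They lie below all others for fibroblast and for mammary secretory and luminal markers, and 168FARN arrays 2 and 3 stand apart for skeletal muscle. The luminal list holds Krt8, the leading gene lower in 67NR.

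Of 42 cell cycle genes measured 24 were higher and 1 lower against the mean (59.5%), with a median difference of 0.47, and 8 were higher against all 3 lines. The 24 became 15 without 67NR array 3, and 11 without 67NR array 2, and the 8 became 5 without 4T1 array 1 or 2, and 4 without 67NR array 2 or 3. Ccnd1, cyclin D1, was at 13.13, 13.30 and 13.16 in 67NR tumours, against 12.17 to 12.80 in the 9 others (1.61-fold higher, adjusted p = 0.000733). Aurkb, a mitotic kinase, was at 9.92, 10.40 and 10.10 in 67NR tumours, against 8.98 to 9.60 in the 9 others (1.82-fold higher, adjusted p = 0.00106). Cdk1, which drives entry into mitosis, was at 10.45 to 10.66 in 67NR tumours, against 9.15 to 10.20 (1.91-fold higher), a shared call lost without any 1 of the 67NR arrays or 168FARN array 1. Cdkn2a, the locus of the cell cycle inhibitors p16 and p19Arf, was at 8.04, 7.98 and 8.75 in 67NR tumours, against 6.16 to 6.88 in the 9 others (3.32-fold higher, adjusted p = 2.48e-05). So the higher members hold inhibitors as well as drivers of the cycle.

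Targets of the transcription factor p53 were mostly higher as well. Of 20 measured 13 were higher and 3 lower in 67NR (80%), with a median of 0.55, and 4 were higher and 1 lower against all 3 lines. The higher shared members numbered 2 without 67NR array 2 or 168FARN array 2, and 1 with 168FARN array 1 alone. Cdkn1a, the cycle inhibitor p21 and the best known target, and Mdm2, which degrades p53, were higher against the mean, with differences of 1.52 and 1.02. Eda2r is in this list too. Zmat3, an RNA-binding target of p53, was at 8.80 to 8.97 in 67NR tumours, against 6.93 to 8.33 (2.51-fold higher), a shared call lost with 168FARN array 1 alone. Plk2, a stress-induced kinase, was at 9.96 to 10.05 in 67NR tumours, against 8.69 to 9.43 (1.91-fold higher), a shared call lost without 67NR array 1 or 2 or 168FARN array 2 and with 168FARN array 1 alone. Tnfrsf10b, a death receptor, was at 6.43, 6.61 and 5.98 in 67NR tumours, against 7.30 to 8.75 in the 9 others (3.54-fold lower, adjusted p = 1.04e-06).

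Of 35 genes of glutathione, redox and aldehyde metabolism 10 were higher and 3 lower in 67NR (37.1%), and 6 were higher and 0 lower against all 3 lines. Beside Gstt1, the glutathione transferase Gstm1 was at 10.96, 10.83 and 10.73 in 67NR tumours, against 7.51 to 9.38 in the 9 others (5.41-fold higher, adjusted p = 1.65e-07). Gsta4, which clears products of lipid peroxidation, was at 9.90 to 10.32 in 67NR tumours, against 7.33 to 8.53 (3.56-fold higher). Gpx8, a peroxidase of the endoplasmic reticulum, was at 11.78 to 11.89 in 67NR tumours, against 10.10 to 11.07 (2.41-fold higher). The 67NR arrays lay above all others in these 4 genes. The transferase families hold copies of similar sequence, which probesets may not separate fully. Slc7a11, which imports cystine for glutathione synthesis, was lower against the mean (difference -2.03).

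Of 11 S100 genes, listed without S100a8 and S100a9, 7 were higher and 0 lower in 67NR (63.6%). The higher ones numbered 4 without 67NR array 2, and 2 with genes of at least 6 probesets. S100a8 and S100a9 were counted with the neutrophil markers, of which 0 were higher and 12 lower. S100b was at 5.90 to 6.78 in 67NR tumours, against 4.71 to 5.85 (at least 2.29-fold higher). S100a6 was at 12.15 to 12.44 in 67NR tumours, against 11.29 to 11.85 (1.58-fold higher), a shared call lost without 67NR array 1 or 2 or 4T1 array 2 or 3 and with 168FARN array 1 alone. The 3 members higher against all 3 lines numbered 5 without 4T07 array 3, 1 with 168FARN array 1 alone, and 0 with genes of at least 6 probesets. Of 17 prostaglandin genes 5 were higher and 3 lower (47.1%), and the higher ones numbered 3 without 67NR array 1 or 2. The cyclooxygenase gene Ptgs1 was at 10.36, 10.56 and 10.69 in 67NR tumours, against 9.64 to 10.12 in 168FARN and 8.07 to 9.03 in 4T07 and 4T1 tumours (2.79-fold higher), a shared call lost without 67NR array 2 or 3 or 168FARN array 3 and with 168FARN array 1 alone.

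Of 37 hypoxia and glycolysis genes measured 3 were higher and 17 lower (54.1%), with a median of -0.03 against 168FARN, -0.37 against 4T07 and -0.44 against 4T1. Car9, a carbonic anhydrase induced by hypoxia, was at 6.52, 6.32 and 6.14 in 67NR tumours, against 8.86, 7.79 and 6.67 in 168FARN and 9.45 to 10.27 in 4T07 and 4T1 tumours (6.81-fold lower, adjusted p = 3.71e-05), a shared call lost without 67NR array 3. Bnip3, of mitochondrial turnover, was at 9.03, 8.44 and 8.68 in 67NR tumours, against 9.11 to 10.26 in the 9 others (2.43-fold lower, adjusted p = 0.00109). The 4 genes lower against all 3 lines numbered 2 without 168FARN array 1, 1 without 67NR array 3, and 7 with the mean over probesets or without genes in the background in all 4 lines, and the higher ones 1 without any 1 of the 67NR arrays or 4T1 array 1 or 3 and with 168FARN array 1 alone. Vegfa, a target of hypoxia signalling, did not pass (difference 0.23). Of 38 genes of the respiratory chain 3 were higher and 1 lower (10.5%, under the share of all genes), and the higher ones numbered 1 without 67NR array 1 or 2. The complex I subunit gene Ndufs4 was called against all 3 lines (1.88-fold higher), a call lost with 168FARN array 1 alone. In the complement list of 19 3 were higher and 5 lower (42.1%), and the higher ones numbered 5 without 4T07 array 3, 6 with arrays centred on their median or with the mean over probesets, and 5 with a trended robust fit, and the lower ones 3 without 67NR array 2. Its shared members are Clu and Vsig4, described above.

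Genes known from human breast cancer models that colonise the lung differed by member. Of 17 mouse counterparts measured 1 was higher and 5 were lower in 67NR (35.3%), and Fst, Vcam1 and Mmp2 were lower and Ereg higher against all 3 lines. The 11 that did not pass had differences between -0.39 and 0.42.

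A call against the mean can hide lines that go opposite ways. Ogn, osteoglycin of the fibroblast matrix, was at 7.09, 6.82 and 6.02 in 67NR tumours, against 11.16, 12.10 and 11.91 in 168FARN, 6.72, 7.13 and 7.08 in 4T07 and 5.06, 4.73 and 5.49 in 4T1 tumours. The call against the mean (difference -1.29, adjusted p = 0.00166) was carried by 168FARN, and against 4T1 Ogn was higher in 67NR. Sgcd, a sarcoglycan of the muscle membrane complex, was at 8.82, 8.83 and 8.92 in 67NR tumours, against 9.28, 9.75 and 9.17 in 168FARN and 5.25 to 5.72 in 4T07 and 4T1 tumours. Sema3c and Sema5a, secreted and transmembrane semaphorins, had the same order, with differences of -1.20 against 168FARN, 2.36 against 4T07 and 3.55 against 4T1 for Sema3c and -0.81 against 168FARN, 2.84 against 4T07 and 2.49 against 4T1 for Sema5a. Arg1, the arginase of myeloid cells, was at 9.48, 8.37 and 8.39 in 67NR tumours, against 8.66, 7.27 and 6.83 in 168FARN and 11.0 to 11.51 in 4T07 and 4T1 tumours. Its call against the mean was lost without 67NR array 2 or 3. None of these 5 genes is one that the 3 spreading lines share against 67NR.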

How the data were processed

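Total RNA of primary tumours had been hybridised to 12 Affymetrix mouse exon arrays, 3 per line. The deposited values are log2 probeset signals of all 12 arrays. That the scale is log2 was read from the values, which ran from 0.784 to 14.7, and the summarization and normalization that the authors used are not given in the sources used here. Array medians ran from 7.21 to 7.57. Of 228090 probesets, 207232 carried 1 gene symbol in the platform annotation, 3882 several and 16976 none, and only those with 1 symbol were used. Of 16207 symbols, 14055 were current in RefSeq GRCm38.p6, 2111 were updated and 41 were kept, which gave 16185 genes. Probesets of 1 gene varied together over the arrays (median correlation 0.913 over 499 genes, against 0.0144 after shuffling). The level of a gene is the median over its probesets, with at least 3 (15025 genes).

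The group means of the 4 lines were fitted in 1 model with limma 3.58.1 (R 4.3.3), with no block. The contrasts were 67NR minus the mean of the 3 spreading lines, 67NR minus each line, and an F-test among the spreading lines. All p-values were adjusted by Benjamini-Hochberg over 15025 genes and called under 0.05. A fold is 2 to the power of the log2 difference. The number of arrays (12) limits the precision. Arrays were also simulated with 1 mean per gene for all 4 lines and normal noise of the spread within lines, apart from genes changed in 67NR. Of 100 genes changed by 1 log2 unit 80% were called against the mean (55% against all 3 lines), and of 100 changed by 2 units 97% (90%). There were 9 false calls against the mean and 0 against all 3. The simulated spreading lines did not differ from each other, so these numbers cannot measure the effect of differences between lines.

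The comparison and the 43 gene lists (32 of pathways, 11 of cell type markers) were chosen with earlier results of these data known, and so are no independent support for any direction. Genes were named by a rule. In each direction it takes the 15 genes with the largest smallest difference over the 3 lines among those called against the mean and all 3 lines, differing by at least 1 from each, with 67NR arrays outside the range of the 9 others. From each list it takes up to 6 members called against all 3 lines and, where fewer than 2 were, up to 3 called against the mean. It adds 5 genes per direction called the opposite way against 1 line, and the 5 per direction with the smallest spread of differences among those at least 2 from each line. Beside these, Ifih1 and Psme1 were named for a promoter match, and Epcam, Cdh1, Vim, Tgfa, Egfr, Snai2, Prrx1, Zeb1, Zeb2, Cdkn1a, Mdm2, Slc7a11, Vegfa, H2-K1, H2-D1 and B2m for their role, after their values were seen. The alternatives were quantile normalization or median centring of the arrays, the mean over probesets, other probeset minimums, no genes at background, a trended and robust variance, the replicate number as a block, 67NR against the 9 others as 1 group, each spreading line left out, 168FARN array 1 alone, and each array left out.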

Additional observations from a re-analysis of the deposited data

Results flagged for a closer look

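In 10 genes the difference of 67NR from a spreading line changed sign between lines, with a call in each direction, and the lines themselves differed in the limma F-test over 168FARN, 4T07 and 4T1, whose adjusted p over all genes is given for each. In 5 of them 67NR lay below 168FARN and above 4T07 and 4T1. Sgcd, a sarcoglycan gene, differed by -0.54 against 168FARN, 3.44 against 4T07 and 3.32 against 4T1 (adjusted p = 4.99e-09). Cyp2c55, a cytochrome P450 gene, differed by -0.50, 1.72 and 3.71 in the same order of lines (adjusted p = 6.69e-09). For the semaphorin genes Sema3c and Sema5a the values were -1.20, 2.36 and 3.55 (adjusted p = 7e-08) and -0.81, 2.84 and 2.49 (adjusted p = 5.12e-08). Chic1 differed by -0.62, 2.70 and 2.33 (adjusted p = 3.76e-08).

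In 4 genes 67NR lay above 168FARN and below 4T07 and 4T1. Tnnt2, which encodes cardiac troponin T, differed by 0.91 against 168FARN, -3.44 against 4T07 and -3.52 against 4T1 (adjusted p = 1.2e-07). Myh10, a non-muscle myosin gene, differed by 0.77, -2.30 and -2.51 (adjusted p = 6.13e-07). The chloride channel gene Ano1 differed by 0.63, -2.51 and -2.13 (adjusted p = 3.34e-07), and Arg1 by 1.16, -2.49 and -2.66 (adjusted p = 1.06e-05). Ogn had its own order, with -5.09 against 168FARN, 1.55 against 4T1 and, not called, -0.33 against 4T07 (adjusted p among the spreading lines = 1.8e-08). These genes were picked as the largest of their kind, so the p-values describe them and do not test the choice.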

How the results depend on the processing

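The call counts depended most on how 168FARN and the spread between lines were treated. With the 9 arrays of the spreading lines as 1 group, where their spread enters the error, 1444 genes were called (902 higher and 542 lower in 67NR). With 168FARN left out, 2484 genes were called against both other lines (1404 higher, 1080 lower), 1005 with a difference of at least 1 in each (478 and 527), 344 differed between 4T07 and 4T1, and the differences of Itga6 (-0.28) and Ogn (0.61) from the mean changed sign. With 168FARN array 1 alone, assumed to vary like the other arrays, 1847 genes were called against 168FARN (876 higher, 971 lower), 411 were higher against all 3 lines and 2333 differed among the spreading lines. Fewer samples or tests enter these fits, and the cause was not tested further. With 1 line left out, 37 list counts against both others and 26 against the mean of both moved by over 1.5 times. Of the lower counts against the mean, neutrophil markers numbered 5 without 4T07 instead of 12, cadherins and adhesion genes 9 without 4T1 instead of 16, and chemokines 13 without 168FARN and 4 without 4T07 instead of 7. Lower MHC class II genes numbered 4 without 168FARN, and higher ones 2 without 4T07, instead of 0.

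Leaving out each array in turn gave 2442 to 3964 calls against the mean (1198 to 2135 higher, 1244 to 2046 lower), 2799 to 4093 against 168FARN, 2563 to 3580 against 4T07 (1234 to 1989 higher) and 2441 to 3676 against 4T1. Against all 3 lines it gave 685 to 1013 (387 to 634 higher, 293 to 430 lower), and 308 to 354 with a difference of at least 1 in each. The counts of 2442, 1198, 1234 and 387 are those without 67NR replicate 2. Among the spreading lines 3780 to 5041 genes differed.

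The replicate numbers of the labels are shared by all lines. Of 18 same-number pairs of arrays, 3 correlated above 0.1 in their deviations from the group means (-0.086 to 0.191, median 0.012), and no label says what a number marks, so the arrays were not taken as pairs. That 8 of 12 arrays correlated best with their own number is a hint from the data, not from the design. With the replicate block 3837 genes were called against the mean (2026 higher, 1811 lower), 3862 against 168FARN, 3666 against 4T07, 3457 against 4T1 and 1055 against all 3 lines (648 higher, 407 lower), of which 963 were among the 1009. Quantile normalization gave 1207 shared genes (994 of the 1009), median centring 1188 (978) and the mean over probesets 1255 (907). These scalings moved the median difference of all genes to 0.011 and 0.004, against 0.002 as deposited. Of 169 named genes, 133 kept their direction and side of the threshold in every alternative run for them, which were 25 for 156 genes and 24 for the 13 with fewer than 6 probesets. The labels and files give no other batch, and levels in the background limit what can be said of weak genes.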
